A study of Drosophila melanogaster with 26 samples.

Results

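The genes described here lie on the X chromosome of Drosophila melanogaster within 1 Mb of lncRNA:roX2, a gene for a non-coding RNA of the male dosage compensation machinery. In the release 6 genome, lncRNA:roX2 runs on the plus strand of X from 11579065 to 11580432. A gene's start here is its lower coordinate, whichever its strand. Genes were taken when their start lay between 10.58 and 12.58 Mb on X and at least 1 read fell on their own strand in each of the 26 deposited count files. Of 237 annotated genes in this window (lncRNA:roX2 itself left out), 119 met the condition and 118 had 0 reads in at least 1 file, among them 20 with 0 reads in every file and 6 with 0 reads in exactly 1. No ribosomal protein gene lay in the window. The 119 genes were 115 protein coding and 4 non-coding genes, 64 with a start below and 55 with a start above that of lncRNA:roX2. They were 119 of the 7909 genes with reads in all 26 files and of the 17489 genes listed in each file.

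Male flies carry a single X chromosome, and the MSL complex (the proteins MSL1, MSL2, MSL3, MLE and MOF with the non-coding RNAs roX1 and roX2) binds active genes of the male X, where MOF acetylates histone H4 and transcription is raised. The roX2 gene is also a site at which the complex binds chromatin strongly and from which it can reach neighbouring genes, while the complex does not form on the X of females, which make almost no MSL2. JIL-1 is a kinase of histone H3 that is enriched on the male X, and JASPer is the partner protein that stabilises and anchors it at active genes. Whether genes close to lncRNA:roX2 responded differently from genes farther away was asked by comparing RNA levels upon depletion of either protein.

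RNA was measured after RNA interference (RNAi) in 2 cultured lines from fly embryos, S2, which is male, and Kc, which is female. Cells received double-stranded RNA against jasper, against jil-1 or against a control sequence at 10 µg/mL for 3 days and again for 4 more days, and the labels give no genetic change made to either line. From S2 cells came 5 libraries of control, 4 of jasper and 5 of jil-1 RNAi, numbered 4 and 5 (batch 1), 8 and 9 (batch 2) and, for control and jil-1 RNAi only, 11 (batch 3). Kc cells gave 4 libraries of each kind, numbered 1 and 2 (batch 1) and 3 and 4 (batch 2). Each sex is represented by 1 line. Which of the study's double-stranded RNAs a library received is not in the labels, nor is it said that replicates came from separate cultures, so the p-values measure only the spread between these libraries, which may be technical.

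Between 2513223 and 17648358 reads per library lay on the strand of a gene, and 35616 to 238662 of them on the 119 genes, which took 1.08 to 1.29% of the reads on genes in S2 and 1.32 to 1.48% in Kc libraries. Levels are given as CPM, the reads on a gene's own strand relative to the reads on all genes of the library (the usual CPM scale) after TMM scaling over all 26 libraries. The lines matched their labelled sex: lncRNA:roX2 had 520 to 956 CPM in the 14 S2 libraries and 0.616 to 21.4 in the 12 Kc libraries, and msl-2 had 46.8 to 61.7 and 6.03 to 13.2 CPM. Of the hemocyte markers, Pxn was higher in S2 libraries (1306 to 5865 against 19.0 to 190 CPM). By edgeR's test of the controls, crq, He, NimC1, eater, Col4a1 and vkg were also higher in S2 cells (log2 differences from 1.02 to 3.97). In the same test srp did not differ (-0.19, adjusted p = 0.20). Hml alone was higher in Kc libraries (954 to 2284 against 14.4 to 45.7 CPM). Reads opposite to Jasper were at least 132 CPM upon jasper RNAi in S2 and 18.7 CPM in Kc cells (controls at most 10.5 and 1.31 CPM), and reads opposite to JIL-1 at least 109 and 59.7 CPM upon jil-1 RNAi (controls at most 13.1 and 5.52 CPM). The fitted log2 fold-change of own-strand reads in S2 cells was 2.38 for Jasper upon jasper and 1.86 for JIL-1 upon jil-1 RNAi. S2 jasper libraries 5 and 9 had 1102 and 1641 CPM of own-strand Jasper reads and libraries 4 and 8 had 59.4 and 107. Kc jasper libraries 2 and 4 had 1980 and 1042 CPM against 15.0 and 75.7 in libraries 1 and 3. The controls had 114 to 162 CPM in S2 and 84.3 to 94.7 CPM in Kc cells. S2 libraries 4 and 8 and Kc libraries 1 and 3 thus lay below all controls, and the other jasper libraries above them. The size of the fall of the targeted RNA could not be read from these counts. The jil-1 libraries were split likewise, with 566 and 675 CPM of own-strand JIL-1 reads in S2 libraries 4 and 8 against 88.7, 158 and 92.1 in libraries 5, 9 and 11, and 346 and 260 CPM in Kc libraries 1 and 3 against 35.9 and 57.0 in libraries 2 and 4. Own-strand JIL-1 reads in the controls were 63.8 to 94.9 CPM in S2 and 42.8 to 52.7 CPM in Kc cells. The counts of genes that fell or rose are given with and without these libraries.

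The neighbourhood of lncRNA:roX2 was mixed in level and function. Per kb of exon, averaged over all libraries, the levels of its genes ranged from 0.293 CPM (asRNA:CR45604) to 509 CPM (Hsp60A, a mitochondrial chaperonin), with a median of 18.2. After Hsp60A came Ran, the GTPase of nuclear transport, at 427 CPM per kb, and sesB, a mitochondrial ADP/ATP translocase, at 388 CPM per kb. Depth limited the lowest genes only: 102 of the 119 had at least 10 reads in every library, and 7 had 1 read in at least 1 library. Of the genes that overlap, 5 pairs lie on the same strand, where reads that fit both genes may be missing from the counts (Ant2 and sesB, sbr and CG32669, Klp10A and CG44385, CDK2AP1 and asRNA:CR44054, Ten-a and CG34323), and 19 pairs lie on opposite strands.

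In male S2 cells, most genes around lncRNA:roX2 were slightly lower upon jasper RNAi. With edgeR's quasi-likelihood test and an adjusted p below 0.05, 34 of the 119 genes fell and 2 rose, which is 28.6% and 1.68%, while 11.9% of all 8465 genes tested in S2 cells fell and 8.45% rose. The changes were small. The median log2 fold-change over the 119 genes was -0.10 ± 0.02 (SD over 4 same-numbered pairs), 88 estimates were negative, and the genes that fell had a median of -0.28. The labels do not say that equal numbers mark shared cultures. A same-numbered pair, here and below, is thus only a match of libraries within a batch. Between 75 and 90 of the 119 genes were lower than in the same-numbered control in each of the 4 pairs, and 31 of the 34 fell in every pair, but only 14 of the 34 had no CPM value within the range of the controls. Such counts were not made for the fallen genes outside the window, so they say nothing particular of it. The 34 dropped to 22 without S2 jasper library 8, to 18 without libraries 5 and 9, to 20 without libraries 4 and 8 and to 10 without batch in the fit (median -0.10), while the median stayed between -0.10 and -0.08 with either couple left out. In these bulk libraries, fewer cells of a type and less RNA per cell cannot be told apart.

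The rest of the X behaved much like this window. Among the other 1201 X genes with reads in all files, 21.3% fell upon jasper RNAi with a median log2 fold-change of -0.09, and among the 63 X genes within 1 Mb of lncRNA:roX1, the other roX gene, 15.9% fell with a median of -0.09. The 6182 genes on 2L, 2R, 3L and 3R had a median of 0.03, and 9.82% of them fell. The medians of these sets are descriptions, and the difference between the 119 genes and the rest of the X was not tested.

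**Figure D1:**
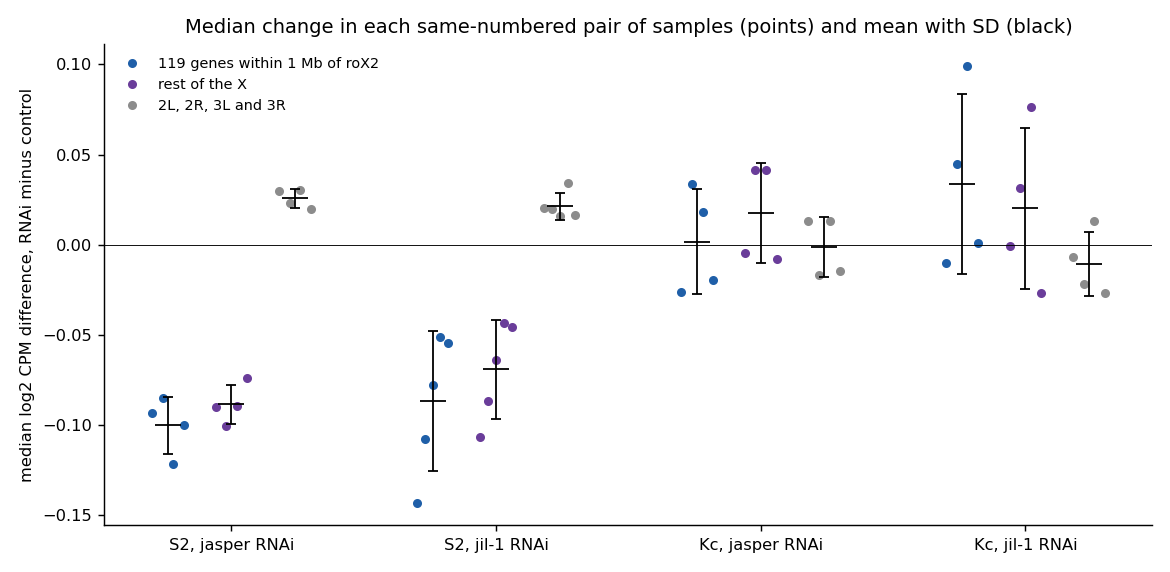
Median log2 difference in CPM between each RNAi library and the control library of the same number, for the 119 genes within 1 Mb of lncRNA:roX2, the other X genes and the genes on 2L, 2R, 3L and 3R. In all 9 S2 pairs the 119 genes lay below 0 (-0.14 to -0.05) and the autosomal genes above 0, and in the 8 Kc pairs the 119 genes lay between -0.03 and 0.10.

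The fall with the smallest p-value in this window upon jasper RNAi was that of CG15740 (FBgn0030340, minus strand, X from 11842662 to 11846099, 264 kb above lncRNA:roX2). It had 105, 101, 122, 115 and 134 CPM in S2 control libraries 4, 5, 8, 9 and 11, and 58.5, 58.0, 63.8 and 65.5 CPM in jasper libraries 4, 5, 8 and 9. Every jasper library lay far below every control. Its log2 fold-change was -0.87 (SE 0.05, adjusted p = 6.0e-09). In Kc cells CG15740 was almost silent, at 0.114 to 1.11 CPM in the controls, with as few as 1 read per library.

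Tim8 (FBgn0027359, plus strand, X from 11368445 to 11369283, 211 kb below) encodes a chaperone of protein import into mitochondria. It had 42.5, 47.6, 43.6, 49.3 and 35.8 CPM in the S2 controls and 28.5, 27.8, 31.1 and 30.8 CPM upon jasper RNAi, again without overlap. The log2 fold-change was -0.61 (SE 0.06, adjusted p = 4.7e-06). The non-coding lncRNA:CR43961 (488 kb above, inside the span of Ten-a on the opposite strand) went from 14.2, 15.1, 15.0, 16.2 and 12.9 CPM to 9.33, 11.4, 9.80 and 11.2 CPM, also without overlap, with a log2 fold-change of -0.54 (SE 0.11, adjusted p = 0.0034). For these genes and CG15740 the call was kept with any single library left out.

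PGRP-SA (FBgn0030310, plus strand, X from 11561643 to 11562779) encodes a secreted receptor for bacterial peptidoglycan that starts the Toll response. Among the genes that fell in S2 cells both upon jasper and upon jil-1 RNAi it lay closest to lncRNA:roX2, 17 kb below. Its level differed between batches: the S2 controls had 99.9 and 89.4 CPM in batch 1, 170 and 163 in batch 2 and 123 in batch 3. Upon jasper RNAi it had 73.9 and 67.1 CPM in batch 1 and 124 and 120 in batch 2, so the groups overlapped over all batches but not within one. The log2 fold-change in the fit with batch was -0.46 (SE 0.07, adjusted p = 4.6e-04), and without batch in the fit the call was lost.

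Ran (434 kb below) had 592, 616, 634, 689 and 544 CPM in S2 controls and 501, 473, 548 and 548 CPM upon jasper RNAi. All jasper values were below those of controls 4, 5, 8 and 9 and around that of control 11, and the log2 fold-change was -0.28 (SE 0.04, adjusted p = 4.1e-04). Atg8a, the ubiquitin-like protein of autophagosomes (814 kb below), was called with a larger change, -0.64 (SE 0.21, adjusted p = 0.041). It split the jasper libraries, with 99.3 and 102 CPM in libraries 4 and 8 but 43.8 and 48.5 CPM in libraries 5 and 9, against 105 to 161 CPM in the controls. Libraries 5 and 9 are those with many reads on Jasper's own strand, and without them the log2 fold-change was -0.19 (adjusted p = 0.28), while it was -1.33 (adjusted p = 4.7e-06) without libraries 4 and 8. The call was also lost without any single control library, without jasper library 5 or 9 and without jil-1 library 9 or 11 (log2 fold-change from -0.70 to -0.43).

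The 2 genes that rose upon jasper RNAi were CG34323 and CG2124. CG34323 (491 kb above, on the same strand as Ten-a and within it) had 3.03, 2.32, 2.48, 2.38 and 2.52 CPM in the controls and 3.50, 4.30, 4.49 and 5.50 CPM upon jasper RNAi. The groups did not overlap, the log2 fold-change was 0.69 (SE 0.19, adjusted p = 0.018), and the call was lost without control library 8 (0.59) or jasper library 9 (0.59). CG2124 (983 kb below) had 14.9 to 19.3 CPM in the controls and 19.2 to 21.4 CPM upon jasper RNAi, with a log2 fold-change of 0.25 (adjusted p = 0.040) that did not pass without any 1 of 8 libraries (control 4, 5 or 8, jasper 4, 5, 8 or 9, or jil-1 9).

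**Figure D2:**
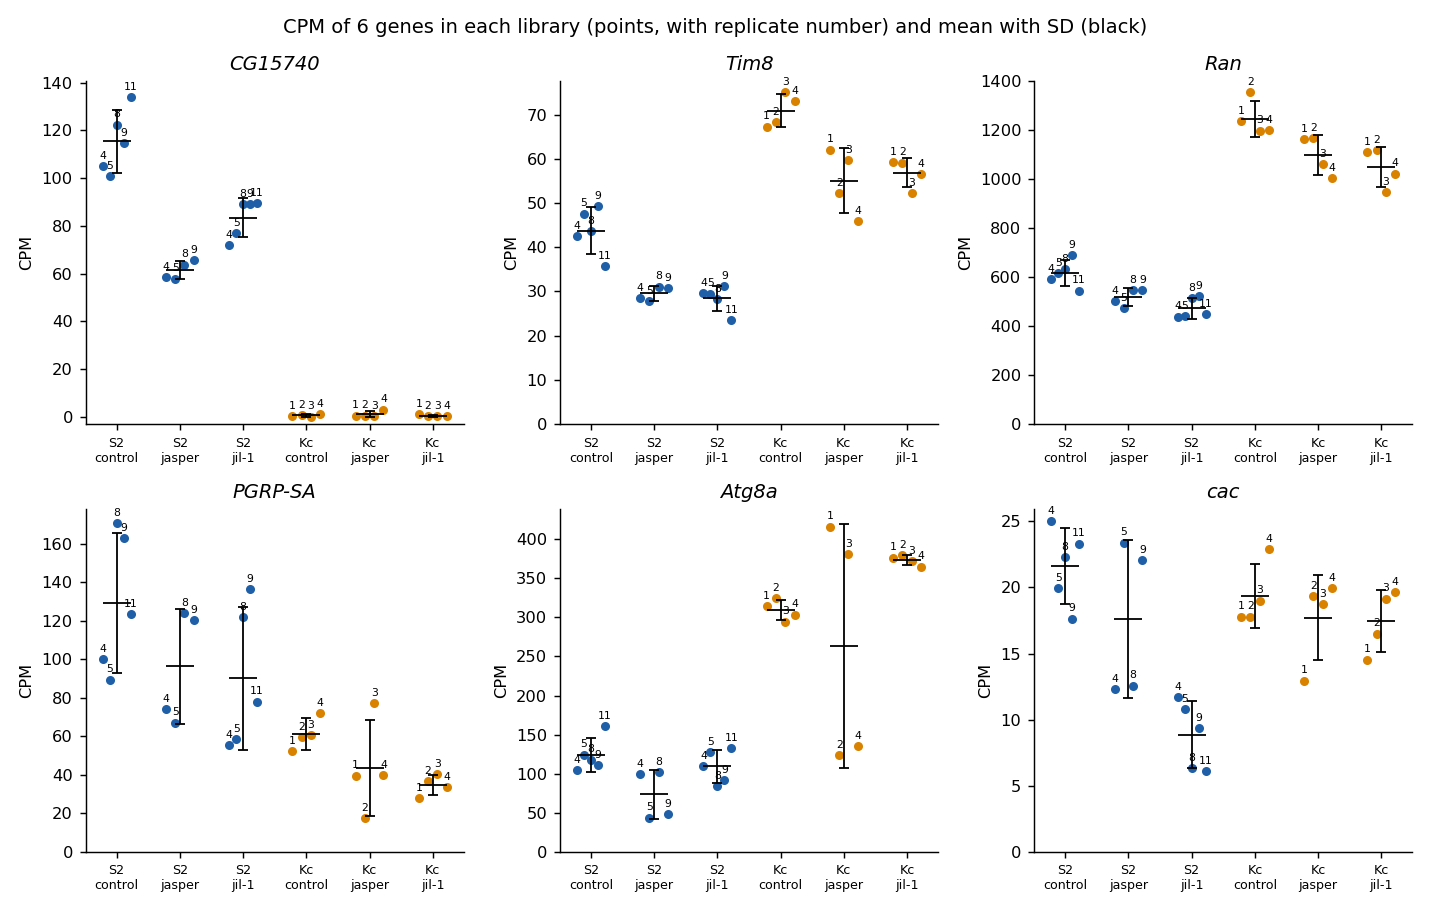
CPM on the gene's own strand in each library of CG15740, Tim8, Ran, PGRP-SA, Atg8a and cac, with points for libraries and the mean ± SD of each group. CG15740 and Tim8 were lower in each S2 RNAi library than in any S2 control, Atg8a was low in S2 jasper libraries 5 and 9 and Kc jasper libraries 2 and 4, and cac was lower in each S2 jil-1 library (6.12 to 11.7 CPM) than in any S2 control (17.6 to 25.0 CPM).

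By function, the genes that fell upon jasper RNAi in S2 cells were spread over all groups formed from their names. Of 11 genes of transcription and chromatin, 4 fell, among them Lint-1 (-0.33) and CDK2AP1 (-0.43), while Polr2A, the largest subunit of RNA polymerase II (16 kb below), had a log2 fold-change of -0.03 (SE 0.05, adjusted p = 0.74). Of 10 genes of the secretory pathway, 5 fell, among them Hsc70-3, the chaperone BiP of the endoplasmic reticulum (-0.28), and the cargo receptor p24-1 (-0.29). Of 7 genes of chromosome segregation and motors, 3 fell, namely Ran, the kinesin-13 Klp10A (-0.20) and the spindle midzone protein feo (-0.26). Of 4 genes of proteolysis and autophagy, 3 fell: Rpt3, an ATPase of the proteasome (-0.35), BORCS5, a subunit of the lysosome-positioning BORC complex (-0.31), and Atg8a. Of 16 genes of signalling and the cell surface, 3 fell, of 6 mitochondrial genes 2, of 6 genes of RNA processing 2, and of 5 genes of metabolism and transport 2. No gene of these 8 groups rose. Of all genes tested in this comparison 11.9% fell and of the 119 genes 28.6%, and groups of 4 to 16 genes were not tested against either share. The medians of the groups ran from -0.33 to -0.09, beside 0.01 over all genes tested.

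Upon jil-1 RNAi, which was compared with the same control libraries, S2 cells also had slightly lower levels of most of these genes. In this comparison, 31 of the 119 genes fell and 5 rose (26.1% and 4.20%), while 12.3% of all 8465 genes fell and 9.12% rose. The median log2 fold-change was -0.09 ± 0.04 (SD over 5 same-numbered pairs), 82 estimates were negative, and the genes that fell had a median of -0.32. Of the 31 genes, 24 fell in every pair and 12 had no value within the range of the controls, counts again not made for genes outside the window. The other X genes had a median of -0.07 with 20.2% fallen, the X genes near lncRNA:roX1 had -0.08 with 15.9% fallen, and the autosomal genes had 0.02 with 10.2% fallen. Without single libraries, 22 to 30 genes fell. The 31 were 26 without jil-1 libraries 4 and 8, 15 without libraries 5, 9 and 11, and 14 without batch in the fit, while the median was -0.07, -0.10 and -0.09.

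The largest falls upon jil-1 RNAi were partly other genes. The gene cac (FBgn0263111, minus strand, X from 11931280 to 11985087, 352 kb above) encodes the pore subunit of a voltage-gated calcium channel. It had 25.0, 20.0, 22.3, 17.6 and 23.3 CPM in S2 controls 4, 5, 8, 9 and 11 and 11.7, 10.8, 6.32, 9.38 and 6.12 CPM in the jil-1 libraries of the same numbers. The groups did not overlap, and the log2 fold-change was -1.36 (SE 0.20, adjusted p = 1.9e-04). Upon jasper RNAi cac was at 12.3 and 12.6 CPM in libraries 4 and 8 but at 23.4 and 22.1 CPM in libraries 5 and 9, and its log2 fold-change of -0.36 (SE 0.20, adjusted p = 0.22) did not pass. Without libraries 5 and 9 it was -0.84 (adjusted p = 0.0085), and without libraries 4 and 8 it was -0.01 (adjusted p = 0.98).

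Upon jil-1 RNAi, CG15740 had 72.1, 77.1, 89.3, 89.0 and 89.7 CPM, below all controls and above all jasper libraries, with a log2 fold-change of -0.47 (SE 0.04, adjusted p = 1.1e-06). Tim8 had 29.5, 29.5, 28.3, 31.1 and 23.6 CPM, below all controls, with a log2 fold-change of -0.61 (SE 0.06, adjusted p = 2.2e-06). Ran, with 438, 441, 513, 523 and 447 CPM, did not overlap with its controls either and had a log2 fold-change of -0.38 (SE 0.04, adjusted p = 9.9e-06). PGRP-SA had 55.5 and 58.5 CPM in batch 1, 122 and 137 in batch 2 and 78.0 in batch 3, each below the controls of its batch, and its log2 fold-change was -0.56 (SE 0.07, adjusted p = 3.6e-05), again lost without batch in the fit.

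The gene regucalcin, which encodes a calcium-binding protein (433 kb above), also differed between batches and fell within each of them. Its S2 controls had 414 and 548 CPM in batch 1, 772 and 715 in batch 2 and 468 in batch 3, and its jil-1 libraries had 227 and 266, 586 and 538, and 386 CPM. The log2 fold-change was -0.59 (SE 0.10, adjusted p = 7.0e-04), lost without batch in the fit. For lncRNA:CR43961 it was -0.60 (SE 0.11, adjusted p = 8.9e-04), with 7.48 to 13.4 CPM against 12.9 to 16.2 CPM and an overlap in 1 jil-1 library, number 5. The calls of cac, CG15740, Tim8, Ran, PGRP-SA, regucalcin and lncRNA:CR43961 were kept with any single library left out.

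The 5 genes that rose upon jil-1 RNAi included genes close to either end of the window. CG2124, at the lower end, had 21.4, 22.6, 21.7, 20.7 and 21.0 CPM, above all controls, with a log2 fold-change of 0.32 (SE 0.07, adjusted p = 0.0064). At the other end, hwt (938 kb above) had 13.7, 13.7, 16.6, 14.4 and 14.6 CPM against 7.87 to 12.1 CPM in the controls, again without overlap, with a log2 fold-change of 0.53 (SE 0.13, adjusted p = 0.0070). GCS1, glucosidase I of N-glycan trimming (235 kb below), had 0.16 (adjusted p = 0.049), and that call was lost without any 1 of 11 of the 14 libraries. The remaining rises were CG1637 (0.20) and rtv (1.08, adjusted p = 0.045). The level of rtv was near the floor, with a mean of 0.906 CPM over all libraries and as few as 1 read.

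Of the groups by function, 6 of the 16 signalling and cell surface genes fell upon jil-1 RNAi, among them cac, PGRP-SA and the serine protease gene gd (-0.65). The transcription and chromatin group had 4 of 11, among them Usp7, a deubiquitinase (-0.17), and moon, a paralogue of a basal transcription factor subunit that acts at piRNA clusters (-0.39). The secretory pathway had 4 of 10 with GCS1 risen, chromosome segregation and motors 3 of 7, and the other 4 groups 1 gene each, where 12.3% of all genes tested and 26.1% of the 119 genes fell. No group was tested against these shares. The medians of the groups lay between -0.16 and 0.01, with 0.00 over all genes tested.

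In female Kc cells these genes showed no common change. Upon jasper RNAi 3 of the 119 genes fell and 0 rose (2.52% and 0%), while 2.79% of all 8847 genes tested in Kc cells fell and 1.76% rose. Upon jil-1 RNAi 3 fell and 1 rose (2.52% and 0.84%), while 2.18% of all genes fell and 1.35% rose, so neither share of falls stood apart from that of all genes. The medians were 0.01 ± 0.03 and 0.03 ± 0.05 (SD over 4 same-numbered pairs each), and 55 estimates were negative in each comparison. In DESeq2, 6 genes fell and 2 rose upon jasper RNAi, and 8 fell and 3 rose upon jil-1 RNAi. Shares over all genes were not counted for DESeq2, so these counts cannot be set against the edgeR shares. The spread between Kc libraries was larger, with a biological coefficient of variation of 12.4% against 7.43% in S2 libraries.

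The 3 genes that fell upon jasper RNAi in Kc cells were Tim8, Karl and prtp. Tim8 had 67.3, 68.3, 75.0 and 73.0 CPM in Kc controls 1 to 4 and 62.1, 52.3, 59.7 and 45.9 CPM upon jasper RNAi, without overlap, with a log2 fold-change of -0.37 (SE 0.09, adjusted p = 0.042). For prtp, which encodes a protein of the endoplasmic reticulum that also marks dying cells for engulfment, the values were 97.4 to 105 and 75.6 to 89.3 CPM, without overlap (-0.29, adjusted p = 0.035), and for Karl, a lipocalin gene, 623 to 791 and 491 to 641 CPM with overlap (-0.34, adjusted p = 0.032). These calls were not firm. None of the 3 passed without any single one of control libraries 1, 2, 3 and 4 or jasper libraries 2 and 4, when no gene of the window fell (0 called), 1 gene fell without jil-1 library 2 or 4, and 5 fell without jasper library 3. Without jasper libraries 2 and 4, those with many reads on Jasper's own strand, 0 genes fell and 1 rose, and without libraries 1 and 3, 10 fell and 5 rose. The shares over all genes in these fits were not counted.

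Atg8a, which was not called in Kc cells (-0.24, SE 0.32, adjusted p = 0.70), repeated there the split among jasper libraries seen in S2 cells. It had 123 and 135 CPM in jasper libraries 2 and 4 and 416 and 381 CPM in libraries 1 and 3, with 295 to 325 CPM in the controls. Its log2 fold-change was 0.36 (adjusted p = 0.014) without libraries 2 and 4 and -1.28 (adjusted p = 1.9e-06) without libraries 1 and 3. The part of the excess of Jasper reads in this split was not tested.

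Upon jil-1 RNAi in Kc cells, CG15202 (437 kb below) fell from 29.7, 37.2, 25.8 and 23.4 CPM to 14.3, 18.3, 12.0 and 15.1 CPM, without overlap, with a log2 fold-change of -0.97 (SE 0.14, adjusted p = 0.0033). CG9360 (184 kb above, on the strand opposite to the gene m, which spans it) went from 10.5, 12.7, 11.2 and 11.5 CPM to 6.49, 4.61, 6.99 and 7.17 CPM, also without overlap, with -0.88 (SE 0.16, adjusted p = 0.013). Rph, the rabphilin gene (830 kb below), rose from 11.4 to 19.0 CPM in the controls to 20.9 to 35.1 CPM, without overlap, by 0.78 (SE 0.15, adjusted p = 0.016). These 3 calls were kept with any single library left out. Without jil-1 libraries 1 and 3 none of the 119 genes was called (0 fell and 0 rose), and without libraries 2 and 4 CG15202 alone kept its call (1 fell and 0 rose). Ran was lower in every jil-1 library (946 to 1118 CPM) than in any Kc control (1198 to 1354 CPM), but its call (-0.25, SE 0.06, adjusted p = 0.042) was lost whichever of the 12 libraries was left out.

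The difference between the lines was tested directly by the interaction of line and RNAi over all 26 libraries. For jasper RNAi, 4 of the 119 genes changed toward lower values in S2 than in Kc cells and 1 toward higher values (3.36% and 0.84%), while 3.00% and 1.33% of the 7909 genes tested did so. For jil-1 RNAi the counts were 15 and 1 (12.6% and 0.84%), while 3.58% and 4.35% of all genes tested did so. The median of the interaction over the 119 genes was -0.11 for jasper and -0.12 for jil-1 RNAi, and over the rest of the X it was -0.11 and -0.10. The share toward lower values was 4.16% and 6.16% over the rest of the X, and for jil-1 RNAi 11.7% in the 2 Mb window centred 4 Mb above lncRNA:roX2. No test compared these sets. The 4 were 2 without Kc control 3, S2 control 4 or Kc jasper 2 or 4, and 1 without S2 jasper 8. The 15 were 7 without Kc control 3 or S2 control 8, and 9 without Kc jil-1 library 3 or S2 jil-1 library 9.

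The line difference farthest from 0 in the jil-1 comparison was that of Ten-a, a gene of the teneurin family of cell surface proteins (X from 12043698 to 12335214, 465 kb above lncRNA:roX2). Ten-a had 40.5, 37.4, 31.0, 29.1 and 46.9 CPM in S2 controls and 30.8, 40.8, 16.5, 18.6 and 28.2 CPM upon jil-1 RNAi, while in Kc cells it had 0.526 to 2.59 CPM in the controls and 11.2, 0.971, 5.23 and 6.04 CPM upon jil-1 RNAi. The groups overlapped in both lines. The interaction was -2.46 (SE 0.63, adjusted p = 0.019), the fall in S2 cells was -0.55 (adjusted p = 0.011, lost without S2 control 8, when it was -0.47), and the Kc estimate of 2.17 (SE 0.73, adjusted p = 0.11) did not pass.

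The small genes inside the span of Ten-a gave interactions of the same sign. For moon the jil-1 interaction was -1.18 (SE 0.19, adjusted p = 4.9e-04), with 31.3 to 44.8 CPM in S2 controls and 22.6 to 33.9 CPM upon jil-1 RNAi, and 1.51 to 4.55 CPM and 3.13 to 6.04 CPM in the same Kc groups. For lncRNA:CR43961 it was -1.11 (SE 0.20, adjusted p = 0.0014), and its 4 Kc jil-1 libraries (3.89 to 5.23 CPM) all lay above the Kc controls (2.73 to 3.46 CPM), although the Kc change of 0.52 did not pass (adjusted p = 0.14). For CG34323 it was -1.17 (adjusted p = 0.046), and that call was lost without any 1 of 17 of the 26 libraries. The genes moon and lncRNA:CR43961 lie on the strand opposite to Ten-a and CG34323 on its strand, and over all genes the reads on the opposite strand amounted to 3.42 to 6.86% of those on the own strand. The part of Ten-a reads in the counts of these 3 genes was not tested.

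Away from Ten-a, cac (-1.20, SE 0.27, adjusted p = 0.0093), CG10352 (-1.95, at most 3.09 CPM in any library), regucalcin (-0.54), SelG (-0.50), CG2061 (-0.44), Drak (-0.44), hop, the JAK kinase of fly JAK/STAT signalling (-0.40), HP5 (-0.36), CkIIbeta, the regulatory subunit of casein kinase II (-0.33), Met, the juvenile hormone receptor (-0.30), and Rpt3 (-0.27) also had lower jil-1 interactions. Those of cac, SelG, HP5 and Drak were kept with any single library left out, as were those of Ten-a, moon and lncRNA:CR43961. The call of CG10352 was lost without any 1 of 4 libraries (Kc control 3, S2 control 8, Kc jil-1 3 or S2 jil-1 9), of regucalcin without any 1 of 7, CkIIbeta 8, CG2061 9, hop 11, Met 12 and Rpt3 14 of the 26 libraries, among them Kc control 3 for each of these 6 genes. CG9360 was the gene with a higher one (0.87, SE 0.16, adjusted p = 0.0018), and beside its fall in Kc cells it had in S2 cells 15.4 to 22.2 CPM in the controls and 15.0 to 22.3 CPM upon jil-1 RNAi. Drak, a kinase of the death-associated protein kinase family (86 kb below), had lower interactions in both comparisons, -0.42 for jasper (SE 0.11, adjusted p = 0.025) and -0.44 for jil-1 RNAi (SE 0.11, adjusted p = 0.014). In S2 cells it had 131 to 214 CPM in the controls, 112 to 138 CPM upon jasper and 117 to 156 CPM upon jil-1 RNAi. The same groups of Kc libraries had 34.4 to 42.2, 41.5 to 51.6 and 43.8 to 50.8 CPM. The S2 changes of -0.19 (adjusted p = 0.039 and 0.027) were lost without any 1 of 6 and any 1 of 4 of the 14 libraries, and the Kc changes of 0.21 and 0.26 did not pass.

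The other lower jasper interactions were CG11699 (-0.58), BORCS5 (-0.54) and Lsm12a (-0.36, SE 0.09, adjusted p = 0.017), and the higher one was CG2444 (1.61, adjusted p = 0.049, at most 6.35 CPM in any library). Of these, Lsm12a kept its call with any single library left out. It had 46.3 to 59.3 CPM in S2 controls and 43.7 to 50.6 CPM upon jasper RNAi, and 117 to 127 CPM and 123 to 143 CPM in Kc cells. The call of CG11699 was lost without any 1 of 7, of BORCS5 without any 1 of 9, of Drak without any 1 of 5 (Kc control 3, Kc jasper 2 or 4, S2 jasper 4 or 8) and of CG2444 without any 1 of 18 of the 26 libraries.

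The genes next to lncRNA:roX2 were examined whether they changed or not. On the lower side, CG11695 (2.2 kb from start to start), e(y)2 (2.9 kb), CG11696 (5.3 kb), Kmn1 (7.7 kb) and CG11699 (8.4 kb) are the closest, and on the upper side nod (1.7 kb), rho-4 (21 kb), CG2247 (27 kb), CG1703 (33 kb) and Met (37 kb). Of these 10 genes, CG11699 and CG1703 fell in S2 cells upon jasper RNAi and Kmn1 and CG1703 upon jil-1 RNAi, and none was called in Kc cells. In S2 cells 21.3% and 20.2% of the rest of the X fell, and 11.9% and 12.3% of all genes tested. The counts among the 10 genes thus say nothing particular of them.

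The closest gene, nod, encodes a kinesin-like protein that holds chromosomes on the spindle. It had 34.3, 40.9, 40.1, 37.9 and 31.3 CPM in S2 controls, 32.9, 35.4, 35.6 and 38.1 CPM upon jasper RNAi and 35.5, 38.7, 43.3, 42.2 and 36.7 CPM upon jil-1 RNAi. All groups overlapped, with log2 fold-changes of -0.08 (SE 0.07, adjusted p = 0.39) and 0.10 (SE 0.06, adjusted p = 0.27). The gene e(y)2, which encodes a small subunit of the SAGA coactivator and of an mRNA export complex, had 8.93 to 11.9 CPM in S2 controls, 11.4 to 12.6 CPM upon jasper RNAi (0.28, SE 0.11, adjusted p = 0.073) and 8.95 to 13.3 CPM upon jil-1 RNAi (0.24, SE 0.10, adjusted p = 0.098). The rhomboid protease gene rho-4, at 98.6 to 127 CPM in S2 controls, had -0.01 and -0.02 (SE 0.05 each), and CG2247, at 97.6 to 110 CPM, had -0.01 (SE 0.05) and 0.02 (SE 0.04).

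CG1703 (X from 11611927 to 11615128, plus strand) was the member of these 10 with the firmest fall. It had 255, 254, 227, 226 and 262 CPM in S2 controls, 210, 195, 199 and 196 CPM upon jasper RNAi and 190, 179, 224, 196 and 214 CPM upon jil-1 RNAi. Neither RNAi group reached the lowest control. The log2 fold-changes were -0.27 (SE 0.06, adjusted p = 0.0067) and -0.28 (SE 0.06, adjusted p = 0.0025), kept with any single library left out (the second was -0.21, adjusted p = 0.099, without jil-1 libraries 5, 9 and 11), and in Kc cells they were -0.08 (adjusted p = 0.48) and -0.23 (adjusted p = 0.072). CG11699 and Kmn1, a kinetochore gene, overlap on opposite strands. CG11699 had 63.5 to 80.3 CPM in controls and 47.7 to 67.5 CPM upon jasper RNAi (-0.35, adjusted p = 0.028, lost without S2 control 4, 5 or 9 or jasper 5 or 8, with -0.43 to -0.23 over all libraries left out singly), and Kmn1 had 32.0 to 39.5 CPM in controls and 24.3 to 35.5 CPM upon jil-1 RNAi (-0.30, adjusted p = 0.018, lost without S2 control 8 or 11 or jil-1 4, 8 or 11, with -0.37 to -0.24). Both pairs of groups overlapped.

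Change was then described by distance from lncRNA:roX2, taken between the starts as annotated. For a gene on the minus strand this start is where transcription ends. Measured to the transcription start, cac lay 406 kb and Pits 1004 kb above. In S2 cells, jasper RNAi gave a median log2 fold-change of -0.09 for the 46 genes within 250 kb, -0.19 for the 46 genes from 250 to 500 kb, -0.07 for the 10 genes from 500 to 750 kb and -0.04 for the 17 genes farther away. Upon jil-1 RNAi the medians in the same order were -0.06, -0.18, -0.05 and 0.02. In both comparisons the lowest median was that of the genes from 250 to 500 kb, and not of the nearest ones.

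The genes from 250 to 500 kb also held the most falls, 17 of 46 upon jasper and 19 of 46 upon jil-1 RNAi, where the genes within 250 kb had 11 of 46 in each. The share of falls was 11.9% and 12.3% over all genes tested and 21.3% and 20.2% over the rest of the X, and no bin was tested against these. Beyond 500 kb 6 of 27 fell upon jasper and 1 of 27 upon jil-1 RNAi. The lower medians from 250 to 500 kb were present on both sides of lncRNA:roX2: -0.19 below (18 genes) and -0.19 above (28 genes) upon jasper RNAi, and -0.16 and -0.18 upon jil-1 RNAi. The 14 genes within 50 kb had medians of -0.05 and -0.04, with 3 and 4 falls. Genes from 250 to 500 kb had lower levels in S2 controls (median 36.1 CPM) than those within 250 kb (61.6 CPM). By side this held above lncRNA:roX2 (29.3 against 59.1 CPM) but not below it (80.9 against 63.1 CPM). Genes from 250 to 500 kb also had shorter exons in total (median 1977 against 2819.5 bp). The part of level or exon length in the medians of change was not tested.

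Near and far genes were also compared directly. The median within 250 kb minus that beyond 750 kb was -0.05 ± 0.11 (SD over 4 pairs, 2 of them negative) upon jasper RNAi and -0.09 ± 0.06 (SD over 5 pairs, 4 of them negative) upon jil-1 RNAi. The latter was -0.25 with limits of 100 and 900 kb and -0.15 as a difference of means. In Kc cells it was 0.11 ± 0.04 (SD over 4 pairs, none negative) and 0.00 ± 0.12 (SD over 4 pairs, 2 of them negative). The value for Kc jasper was 0.0088 as a difference of means, 0.02 with a single split at 500 kb and 0.16 with limits of 100 and 900 kb. Spearman's rho of log2 fold-change with distance over the 119 genes, which share their libraries, came to 0.01 (jasper) and 0.04 (jil-1) in S2 and to -0.08 and 0.02 in Kc cells.

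**Figure D3:**
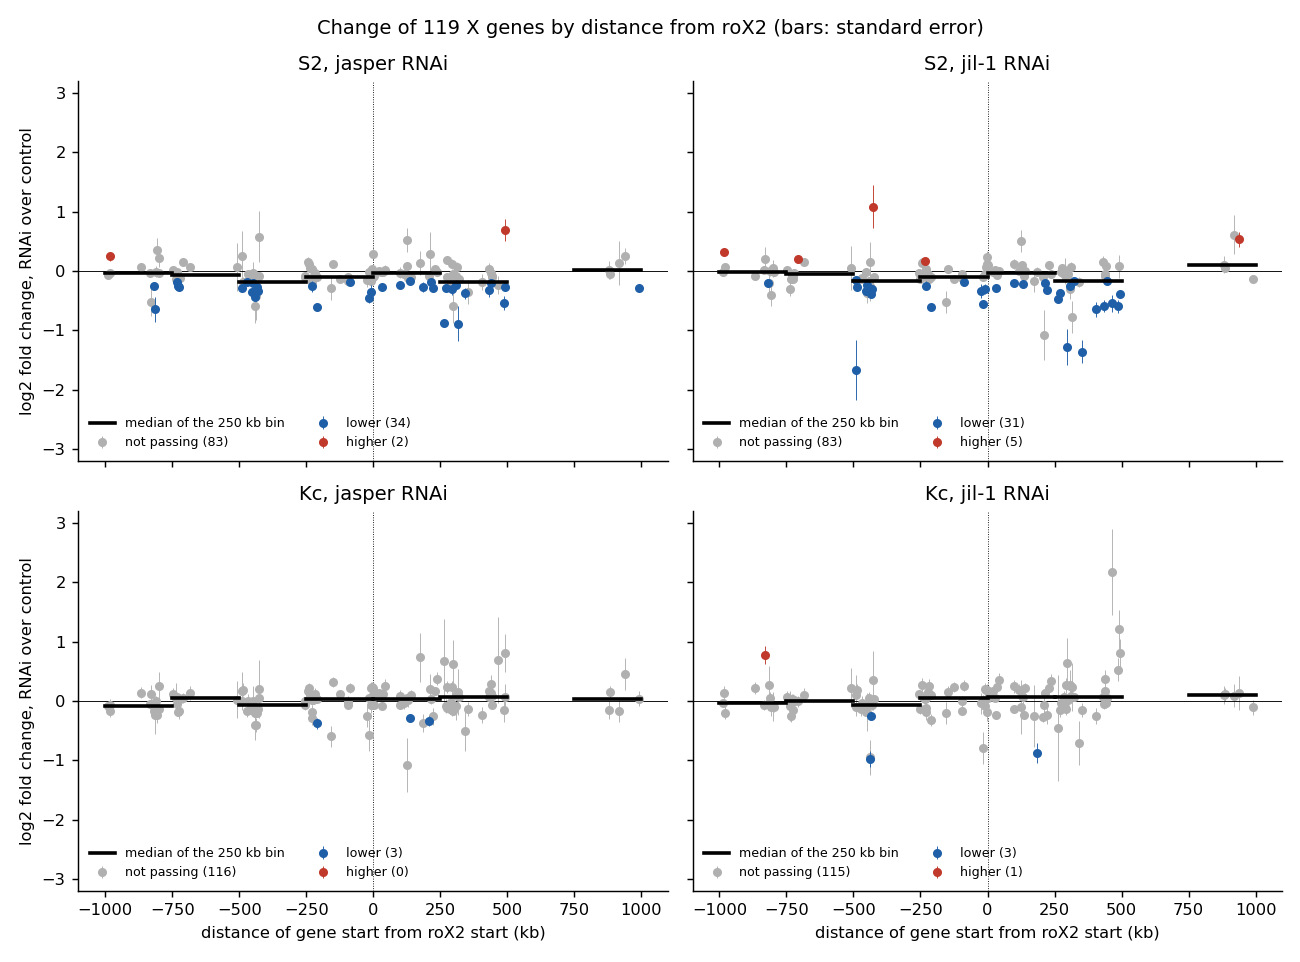
Log2 fold-change ± SE of each of the 119 genes against the distance of its start from that of lncRNA:roX2 in kb (negative values lie below it), for jasper and jil-1 RNAi in S2 and Kc cells. Colours mark genes that passed the edgeR test, and black lines are the medians of 250 kb bins, which in S2 cells were lowest from 250 to 500 kb (-0.19 and -0.18) on either side and in Kc cells stayed between -0.08 and 0.10.

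At the limits of the window, Hmr, a hybrid male rescue gene 988 kb below and the outermost gene inside, had -0.06 and -0.01 in S2 cells upon jasper and jil-1 RNAi, and Pits, 990 kb above, had -0.30 (adjusted p = 0.0062) and -0.13. The nearest genes outside were spri (1089 kb below), with -0.16 (adjusted p = 0.049) and -0.09, and CG1824 (1013 kb above), with -0.08 and 0.04. These values are given as a description.

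Windows of 2 Mb along the whole X gave S2 medians between -0.13 and 0.02 upon jasper RNAi and between -0.13 and -0.02 upon jil-1 RNAi. The window centred on lncRNA:roX2, with -0.10 and -0.09, lay within these ranges. Its share of falls was 28.6% and 26.1%, and the share was higher in the window centred 4 Mb above, with 29.4% and 35.0% of 163 genes. The next window, 2 Mb above, had medians of -0.01 and -0.02 with 16.7% and 12.7% of its 102 genes fallen. These windows are described without a test of their differences.

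**Figure D4:**
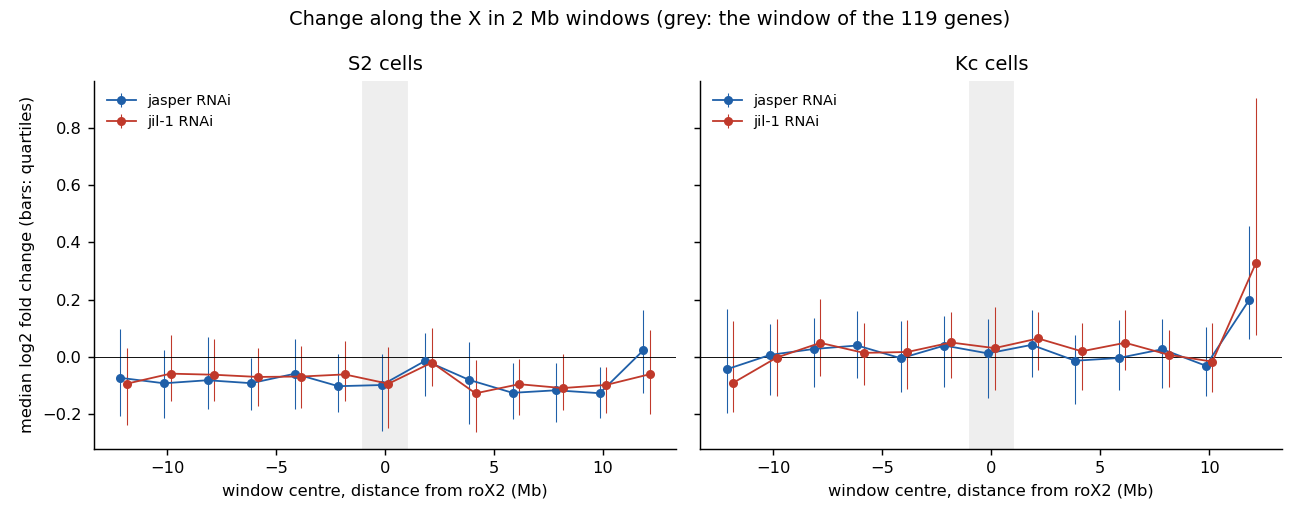
Median and quartiles of log2 fold-change in 2 Mb windows along the X, by distance of the window centre from lncRNA:roX2 in Mb, for S2 and Kc cells. The window at 0 holds the 119 genes, its S2 medians of -0.10 and -0.09 lie within the range of the other windows, and its Kc medians of 0.01 and 0.03 lie near 0.

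Levels without depletion differed widely between the lines. Between S2 and Kc control libraries, S2 cells had lower levels of 48 of the 119 genes and higher levels of 48 (40.3% each), while 35.6% of the 7909 genes tested were lower and 33.8% higher. Of the 119, 20 were higher by more than 1 on the log2 scale and 19 lower by more than 1. The genes that differed most in favour of S2 cells were CG15740 (7.56, SE 0.32), Ten-a (4.83, SE 0.55), m, a gene of the cuticle-shaping ZP protein family (4.16, SE 0.39), and moon (3.89, SE 0.26). Those lower in S2 cells were led by CG15202 (-6.03, SE 0.23), mdu (-4.75, SE 0.37), sev, the receptor tyrosine kinase of photoreceptor fate (-4.18, SE 0.38), and CG15211 (-3.83, SE 0.22).

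CG15202 had 0.369, 0.464, 0.382, 0.477 and 0.572 CPM in S2 controls, with as few as 2 reads, and 29.7, 37.2, 25.8 and 23.4 CPM in Kc controls. CG15211 had 7.01, 11.1, 7.95, 4.53 and 12.8 CPM in S2 controls and 135, 122, 124 and 113 CPM in Kc controls. The groups of both genes were far apart. The line, its sex and everything else in which S2 and Kc cells differ cannot be told apart in this comparison.

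The difference between the lines was then described by position. The median log2 difference of S2 against Kc controls was 0.32 within 250 kb, 0.21 from 250 to 500 kb, -0.19 from 500 to 750 kb and -0.77 beyond, and Spearman's rho over the 119 genes was -0.40 with distance and 0.41 with signed position along the X. The sides differed in sign from 250 to 500 kb, with a median of -0.29 below lncRNA:roX2 (10 lower, 4 higher) and 0.45 above it (3 lower, 17 higher). All 17 genes beyond 750 kb had negative estimates, of which 15 passed. Over all genes tested 33.8% were higher and 35.6% lower in S2 cells, and over the rest of the X 29.9% and 40.2%. Medians of 2 Mb windows along the X ran from -0.81 to 0.47, the highest being that centred 2 Mb above lncRNA:roX2. No bin was tested against these values. Of the 14 genes within 50 kb, 11 were higher in S2 cells, with a median of 0.90.

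These 14 included Polr2A, with 647, 712, 588, 568 and 576 CPM in S2 controls and 205, 229, 193 and 224 CPM in Kc controls. Every S2 value lay above every Kc value, and the log2 difference was 1.54 (SE 0.09, adjusted p = 7.4e-14). The phosphatase gene Ptp10D (82.7 to 128 against 28.8 to 36.2 CPM) had 1.64 (SE 0.12), CG11695 1.35, Kmn1 1.33, CG11699 1.27 and PGRP-SA 1.08, and CG1572 had 3.31 (SE 0.25). The 3 others were nod (0.09, adjusted p = 0.34), e(y)2 (-0.37) and CG1703 (-0.30).

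The far genes lower in S2 cells lay mostly below lncRNA:roX2, where all 12 genes beyond 750 kb passed, among them the ADP/ATP translocase genes sesB (-0.79) and Ant2 (-1.96, counts uncertain since these genes overlap on 1 strand), Atg8a (-1.32) and Rph (-2.45). Genes below lncRNA:roX2 had a median of -0.29 with 34 lower and 20 higher, and those above had a median of 0.23 with 14 lower and 28 higher. DNA copy number along the X was not measured here, and its part in these differences was not tested.

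**Figure D5:**
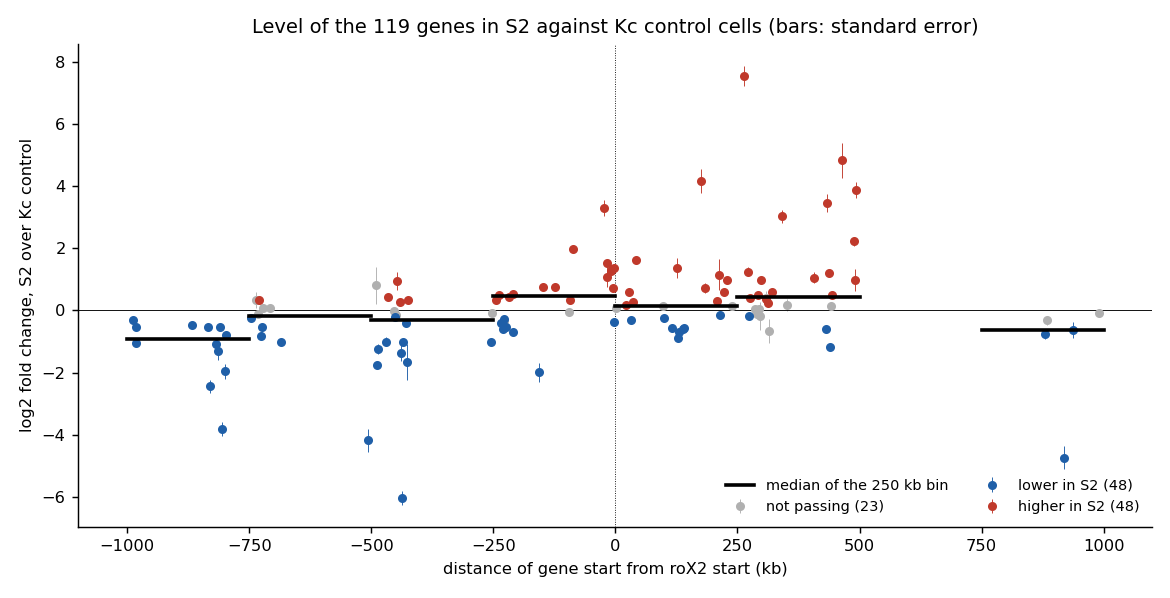
Log2 difference ± SE between S2 and Kc control libraries for each of the 119 genes against the distance of its start from that of lncRNA:roX2 in kb. Genes within 50 kb lie mostly above 0 (median 0.90) and all 17 genes beyond 750 kb lie below 0 (median -0.77).

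The genes of the MSL complex and its partners gave few calls in the same fits. Of 11 genes listed (msl-1, msl-2, msl-3, mle, mof, lncRNA:roX1, lncRNA:roX2, Clamp, JIL-1, Jasper and Unr), 1 fell and 2 rose in S2 cells upon jasper RNAi, where 11.9% of all genes tested fell and 8.45% rose, so these counts say nothing particular of the list. The fall was that of mof, the histone acetyltransferase (-0.18, adjusted p = 0.026), and the rises were msl-1, the scaffold of the complex (0.15, adjusted p = 0.031), and Jasper itself, whose count can hold the double-stranded RNA. Upon jil-1 RNAi Clamp, a zinc finger protein that recruits the complex to the X, fell (-0.14, adjusted p = 0.030) and JIL-1 rose, with a count that likewise can hold the double-stranded RNA. In Kc cells no gene of the list was called upon jasper RNAi, and Unr, a repressor of msl-2 translation in females, rose upon jil-1 RNAi (0.35, adjusted p = 0.021).

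The RNA of lncRNA:roX2 itself was not detectably changed in S2 cells. It had 776, 752, 758, 724 and 849 CPM in S2 controls 4, 5, 8, 9 and 11, 790, 904, 724 and 816 CPM upon jasper RNAi and 956, 831, 520, 713 and 884 CPM upon jil-1 RNAi. The groups overlapped, with log2 fold-changes of 0.11 (SE 0.10, adjusted p = 0.50) and 0.00 (SE 0.09, adjusted p = 0.98).

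Of the 119 genes, 65 passed the test in none of the 4 RNAi comparisons, and 14 in none of these, the interactions and the comparison of the controls. The matching shares of all genes were not counted, so these numbers say nothing particular of the window. The best measured of the 14 was Gapvd1, a gene of endocytosis (254 kb below), with 149 to 184 CPM in S2 controls, 130 to 165 CPM upon jasper RNAi and 127 to 156 CPM upon jil-1 RNAi, and 150 to 177 CPM in Kc controls. Its log2 fold-changes in S2 cells were -0.09 (SE 0.07) and -0.13 (SE 0.07), those in Kc cells -0.07 (SE 0.09) and -0.13 (SE 0.09), and the S2 controls differed from the Kc controls by -0.07 (SE 0.09).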

How the data were processed

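RNA was sequenced as read pairs by the authors, who aligned them to the fly genome (BDGP6, release 6) with STAR 2.6.0 and deposited its counts of uniquely aligned pairs per gene. Per the labels, RSEM 1.3.0 was also used, and its output was not used here. The deposited counts were raw, with columns for a gene's own strand (used here), the opposite strand and both. Of all pairs, 50.6 to 72.4% were given to no gene and were left out of library sizes, unaligned and multiply aligned pairs included. Of uniquely aligned pairs, 8.94 to 15.63% could not be given to a single gene on its own strand. Positions came from the Ensembl annotation of release 6.

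Genes with at least 1 read in every library of a line were fitted with edgeR 4.0.16 (R 4.3.3) by glmQLFit and glmQLFTest on TMM-scaled counts with batch as a term, and p-values were adjusted by Benjamini and Hochberg over all genes tested (threshold 0.05). Standard errors were the log2 fold-change divided by the root of F. The interaction of line and RNAi and the S2 against Kc comparison of controls used the 7909 genes with reads in all 26 libraries, the first with batch within line and the second without batch. Near genes lay within 250 kb and far genes at 750 kb or beyond. The fit was tested on simulated data. Alternatives were DESeq2 1.42.0, other scalings, filters and strands, fits without batch or with a replicate block, and single libraries, or those split by reads of the targeted gene, left out.

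The genes named were the 5 nearest on each side, up to 5 per direction and comparison with the largest change (mean log2 CPM of at least 1, same direction in every pair), up to 4 per direction for interactions and controls, the 3 with the highest level and references of dosage compensation. Examples of function groups and further interaction genes were chosen after their values were seen. The members and lists were chosen with earlier results of these data known.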

Additional observations from a re-analysis of the deposited data

Results flagged for a closer look

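In 5 of 128 groups of 4 or 5 libraries examined, 1 library stood far from the others, and chance alone gives about 1 in 20. They were CG15740 in Kc jasper library 4 (3.04 CPM) and Kc jil-1 library 1 (1.12 CPM), CG34323 in S2 control library 4 (3.03 CPM), Drak in S2 control library 11 (214 CPM) and lncRNA:roX2 in Kc jasper library 4 (21.4 CPM).

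Changes that differed between S2 and Kc cells in the edgeR interaction test, as S2 minus Kc log2 fold-change, were for jasper RNAi CG11699 (-0.58), BORCS5 (-0.54), Drak (-0.42), Lsm12a (-0.36) and CG2444 (1.61). For jil-1 RNAi they were Ten-a (-2.46), CG10352 (-1.95), cac (-1.20), moon (-1.18), CG34323 (-1.17), lncRNA:CR43961 (-1.11), regucalcin (-0.54), SelG (-0.50), CG2061 (-0.44), Drak (-0.44), hop (-0.40), HP5 (-0.36), CkIIbeta (-0.33), Met (-0.30), Rpt3 (-0.27) and CG9360 (0.87).

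Reads opposite to the targeted genes, which no comparison used, exceeded the controls in every RNAi library. The lowest values were 132 CPM for Jasper in S2 and 18.7 CPM in Kc jasper libraries, and 109 CPM for JIL-1 in S2 and 59.7 CPM in Kc jil-1 libraries.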

How the results depend on the processing

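Of 548 counts and medians under alternatives, 444 kept their value within the limits used and 104 changed. Changes of sign were not counted apart for these values, and some medians near 0 in Kc cells did change sign. Of 10560 values of single genes, 460 lost and 75 gained a call and 0 reversed.

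Upon jasper RNAi in S2 cells, 34 genes fell with batch in the fit and 10 without, 18 without libraries 5 and 9 and 20 without libraries 4 and 8 (these couples were chosen after seeing the data). The 2 rises became 1 with DESeq2, with autosomal TMM scaling (median -0.12) or without batch, 4 on unstranded counts or in batches 1 and 2 alone, and 0 without libraries 5 and 9. Upon jil-1 RNAi 31 fell with and 14 without batch, and the 5 rises were 3 with DESeq2, 2 without batch, 3 with the replicate block and, in couples also chosen after seeing the data, 3 without libraries 4 and 8 and 2 without libraries 5, 9 and 11 (15 falls). In Kc cells the 3 falls upon jasper RNAi were 6 with DESeq2 or no filter (2 rises each), 0 without batch, with control and jasper libraries alone or without libraries 2 and 4 (1 rise, median -0.018), and 10 without libraries 1 and 3 (5 rises), and filterByExpr gave 1 rise. The 3 falls upon jil-1 RNAi were 8 with DESeq2 (3 rises), and the 1 rise was 4 with no filter, 0 without batch and 2 with control and jil-1 libraries alone. Without Kc jil-1 libraries 1 and 3 there were 0 falls and 0 rises, and without 2 and 4 there were 1 and 0. The near minus far median was -0.25 for S2 jil-1 and 0.16 for Kc jasper with limits of 100 and 900 kb, -0.15 and 0.0088 from means, and 0.016 for Kc jasper split at 500 kb. The 1 higher jasper interaction was 0 with RLE or autosomal scaling and on unstranded counts. The cause was not tested for these changes, and shares over all genes were not counted under the alternatives.

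Leaving out single libraries gave, for S2 jasper, 22 to 34 falls, 0 to 4 rises, medians of -0.115 to -0.0874 and near minus far values of -0.07 to -0.02. For S2 jil-1 these were 22 to 30, 2 to 5, -0.09 to -0.07 and -0.10 to -0.04. For Kc jasper they were 0 to 5, 0 to 2, -0.01 to 0.04 and 0.064 to 0.13, and for Kc jil-1 2 to 3, 1 to 2, -0.00 to 0.05 and -0.06 to 0.06. Between controls 45 to 47 genes were higher and 43 to 49 lower in S2 cells. The jasper interaction was lower for 1 to 5 and higher for 0 to 2 genes, and the jil-1 interaction for 7 to 20 and 1 to 2.

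With the replicate block, 31 genes fell and 2 rose in S2 jasper, 30 and 3 in S2 jil-1, 3 and 0 in Kc jasper and 2 and 1 in Kc jil-1 libraries. After group and batch means were removed, 0 of 12 same-numbered S2 pairs and 1 of 12 Kc pairs correlated above 0.1. Of the libraries, 0 of 14 in S2 and 0 of 12 in Kc correlated best with their own number. These counts cannot decide on pairing, since same-numbered libraries share a batch and removing batch means lowers correlations within it. With group means alone removed, same-numbered libraries had a median correlation of 0.26 in S2 and 0.32 in Kc. For other libraries of the same batch it was 0.26 and 0.33. The numbers were not taken as pairing. Depth limited the 17 genes with under 10 reads in some library.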
